A study of Mus musculus with 24 samples.

Results

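The interferon stimulated genes described here are 41 genes of the mouse aorta, chosen by name as genes whose transcription interferons raise. All 41 were among the 21959 genes of the count table, and all 41 were among the 14216 genes that passed the filter on low counts. They fall into 9 roles: 3 sensors of foreign or displaced nucleic acid, 4 transcription factors, 4 IFIT proteins, 5 OAS and OAS-like proteins, 11 other antiviral or induced genes, 2 regulators of the response, 6 guanylate binding proteins, 3 immunity related GTPases and 3 genes of antigen processing. The question was whether these genes, as a possible sign of nucleic acid sensing, differed between 4 groups of mice or between single animals.

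Polyadenylated RNA was sequenced from aortas of male mice, taken from the ascending part down to the abdominal bifurcation. The 4 groups were wild type on regular water (WT, n = 6), wild type on β-aminopropionitrile (WT-BAPN, n = 7), ATAD3A knock-in on regular water (ATAD3A-KI, n = 5) and ATAD3A knock-in on BAPN (ATAD3A-KI-BAPN, n = 6). BAPN, an inhibitor of the lysyl oxidases that cross-link collagen and elastin, is used to induce aortic aneurysm and dissection, and was given at 0.5% (w/v) in the drinking water for 28 days from an age of 3 weeks. ATAD3A is an ATPase of the mitochondrial inner membrane. The strain, and the knock-in allele with the promoter and cell types that express it, are not stated in the sources used here. The libraries held 13127645 to 26490651 counts.

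Cells detect viral nucleic acid, or their own DNA and RNA in the wrong compartment, with cytosolic and endosomal sensors, and answer with interferons. Secreted interferons bind receptors on the same and on neighbouring cells, and kinases such as TYK2 then activate transcription factors. Type I interferon acts mainly through a complex that contains STAT2 and IRF9 and binds the interferon stimulated response element (ISRE), and interferon gamma mainly through the gamma activated site (GAS). Mitochondrial DNA or RNA released into the cytosol is one known source of such signals, and in the vessel wall smooth muscle, endothelial and immune cells can all respond.

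The promoter windows of many of these genes hold the ISRE core. RefSeq promoter windows on GRCm38.p6, from 250 bases before to 50 bases after the transcription start, were matched for 29 of the 41 members. The core, GAAA then 2 bases of any kind then GAAA, read on either strand (TTTC, 2 bases, TTTC on the other), was present in 15 of the 29 (51.7%) and in 3.99% of the 27025 genes with such a window. In Ifih1, counted among the 15, the only core lay after the start. The GAS core TTCNNNGAA, which reads the same on both strands, was present in 9 of the 29 (31.0%) and in 9.55% of all. No window was matched for Parp14, Gbp6, Dhx58, Ifi27, Usp18, Rtp4, Gbp4, Zbp1, Oas2, Iigp1, Mx2 and Mx1. A match describes the letters and is not a measured binding site. The 200 bases before the start of 9 members are shown because these members, of 5 roles, carry the core and were among those that stood out in single libraries below. They run 5′ to 3′ on the gene's strand, with the ISRE core on either strand in capitals.
Ifit3 (chr19:34583329-34583528, plus strand): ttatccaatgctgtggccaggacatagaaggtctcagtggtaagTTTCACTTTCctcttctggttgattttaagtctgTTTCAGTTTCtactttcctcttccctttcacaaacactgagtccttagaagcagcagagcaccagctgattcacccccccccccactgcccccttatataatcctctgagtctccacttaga
Ifit3b (chr19:34607757-34607956, plus strand): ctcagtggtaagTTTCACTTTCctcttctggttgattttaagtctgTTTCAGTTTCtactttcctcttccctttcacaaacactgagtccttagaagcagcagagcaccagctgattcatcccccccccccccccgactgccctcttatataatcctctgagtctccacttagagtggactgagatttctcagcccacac
Oas1a (chr5:120907526-120907725, minus strand): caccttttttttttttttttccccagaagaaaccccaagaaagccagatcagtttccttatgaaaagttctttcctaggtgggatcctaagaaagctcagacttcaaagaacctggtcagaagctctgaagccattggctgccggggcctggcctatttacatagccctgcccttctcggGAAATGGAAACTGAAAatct
Bst2 (chr8:71537473-71537672, minus strand): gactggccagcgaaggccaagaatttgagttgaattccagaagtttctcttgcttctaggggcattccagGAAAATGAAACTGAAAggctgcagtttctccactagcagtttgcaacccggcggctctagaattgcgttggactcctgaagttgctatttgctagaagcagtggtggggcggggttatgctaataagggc
Gbp2 (chr3:142620463-142620662, plus strand): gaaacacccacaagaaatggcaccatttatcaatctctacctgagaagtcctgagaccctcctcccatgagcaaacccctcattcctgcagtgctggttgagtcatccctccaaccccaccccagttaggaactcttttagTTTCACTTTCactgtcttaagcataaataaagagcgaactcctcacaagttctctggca
Gbp3 (chr3:142559844-142560043, plus strand): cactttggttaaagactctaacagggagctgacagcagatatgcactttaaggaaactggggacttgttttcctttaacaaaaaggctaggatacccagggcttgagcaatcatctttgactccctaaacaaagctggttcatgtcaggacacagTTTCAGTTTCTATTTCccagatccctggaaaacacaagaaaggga
Gbp7 (chr3:142530136-142530335, plus strand): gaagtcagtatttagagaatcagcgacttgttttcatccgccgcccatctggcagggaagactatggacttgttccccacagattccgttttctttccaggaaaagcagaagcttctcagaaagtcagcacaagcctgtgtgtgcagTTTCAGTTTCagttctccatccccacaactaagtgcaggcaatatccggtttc
Igtp (chr11:58199356-58199555, plus strand): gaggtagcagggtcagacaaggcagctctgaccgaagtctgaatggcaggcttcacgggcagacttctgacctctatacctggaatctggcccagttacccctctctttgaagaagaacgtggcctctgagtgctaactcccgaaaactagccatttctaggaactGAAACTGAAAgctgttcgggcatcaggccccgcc
Irgm1 (chr11:48871421-48871620, minus strand): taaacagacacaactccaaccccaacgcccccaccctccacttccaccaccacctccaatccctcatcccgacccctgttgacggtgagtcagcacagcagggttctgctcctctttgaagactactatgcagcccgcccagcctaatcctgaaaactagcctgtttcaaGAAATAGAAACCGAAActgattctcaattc

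Ifit3 and Ifit3b, neighbours on chromosome 19, share a pair of cores whose starts lie 34 bases apart, at 156 and 122 bases before the start of Ifit3 and at 188 and 154 bases before that of Ifit3b. In Oas1a, Bst2, Gbp3 and Irgm1 there were 2 overlapping cores with starts 6 bases apart. Those of Oas1a began 20 and 14 bases before the start, and those of Bst2 130 and 124 bases before it. Gbp2, Gbp7 and Igtp each had 1 core, at 59, 53 and 34 bases before the start. Bst2, Gbp5, Gbp7, Igtp and Oas1a also held a GAS core, which in Bst2 overlapped the first ISRE core.

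Many members lie beside each other in the genome (GENCODE M21, GRCm38). The 4 Ifit genes span 99.3 kb of chromosome 19 (34550694 to 34650009), Gbp2, Gbp3, Gbp5 and Gbp7 span 144.0 kb of chromosome 3 (142493978 to 142638008), and Oas1a, Oas2 and Oas3 span 177.2 kb of chromosome 5 (120730333 to 120907521). Psmb8, Psmb9 and Tap1 share 19.5 kb of chromosome 17 (34181987 to 34201454), within the major histocompatibility complex. The bodies of 8 members overlap another counted gene, for example Psmb9 and Tap1 on opposite strands, Igtp with Irgm2, and Gbp4 with Gbp8 and Gbp9. Paralogs such as Ifit3 and Ifit3b, or the Gbp genes, can also share reads, so the split of counts within these pairs is uncertain.

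The knock-in label was borne out by Atad3a itself, at 617 to 1629 CPM (counts scaled by library size) in ATAD3A-KI and 231 to 1038 in ATAD3A-KI-BAPN, against 30.2 to 61.4 in WT and 24.9 to 44.8 in WT-BAPN. Smooth muscle markers summed to 10433 to 56462 CPM over the 24 libraries and endothelial markers to 196 to 1435 CPM, so the labelled tissue carried its defining RNA. WT replicate 5 also carried RNA of other tissue: its 6 airway epithelium markers summed to 19523 CPM and its 7 skeletal muscle markers to 6277 CPM, where the medians of WT were 26.6 and 14.2 CPM. Its 6 B cell markers summed to 624.9 CPM (WT median 2.18) and its 12 macrophage markers to 2526 CPM (WT median 221).

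The level of the interferon stimulated genes varied between single animals of the same group. The mean of log2 CPM over the 41 members ran from 2.77 to 4.93 in WT (median 3.12), from 1.64 to 6.34 in WT-BAPN (median 3.07), from 2.57 to 3.59 in ATAD3A-KI (median 3.22) and from 2.66 to 4.46 in ATAD3A-KI-BAPN (median 3.30). The 4 medians thus lay close together while the range within WT-BAPN covered that of all other libraries. The median SD of log2 CPM within WT-BAPN was 1.61 for the members and 0.35 for all genes tested. It was 0.93 against 0.37 in WT, 0.60 against 0.38 in ATAD3A-KI and 0.67 against 0.41 in ATAD3A-KI-BAPN. Members and all genes were not matched by level, and the value of WT-BAPN includes replicate 2, described below.

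**Figure D1:**
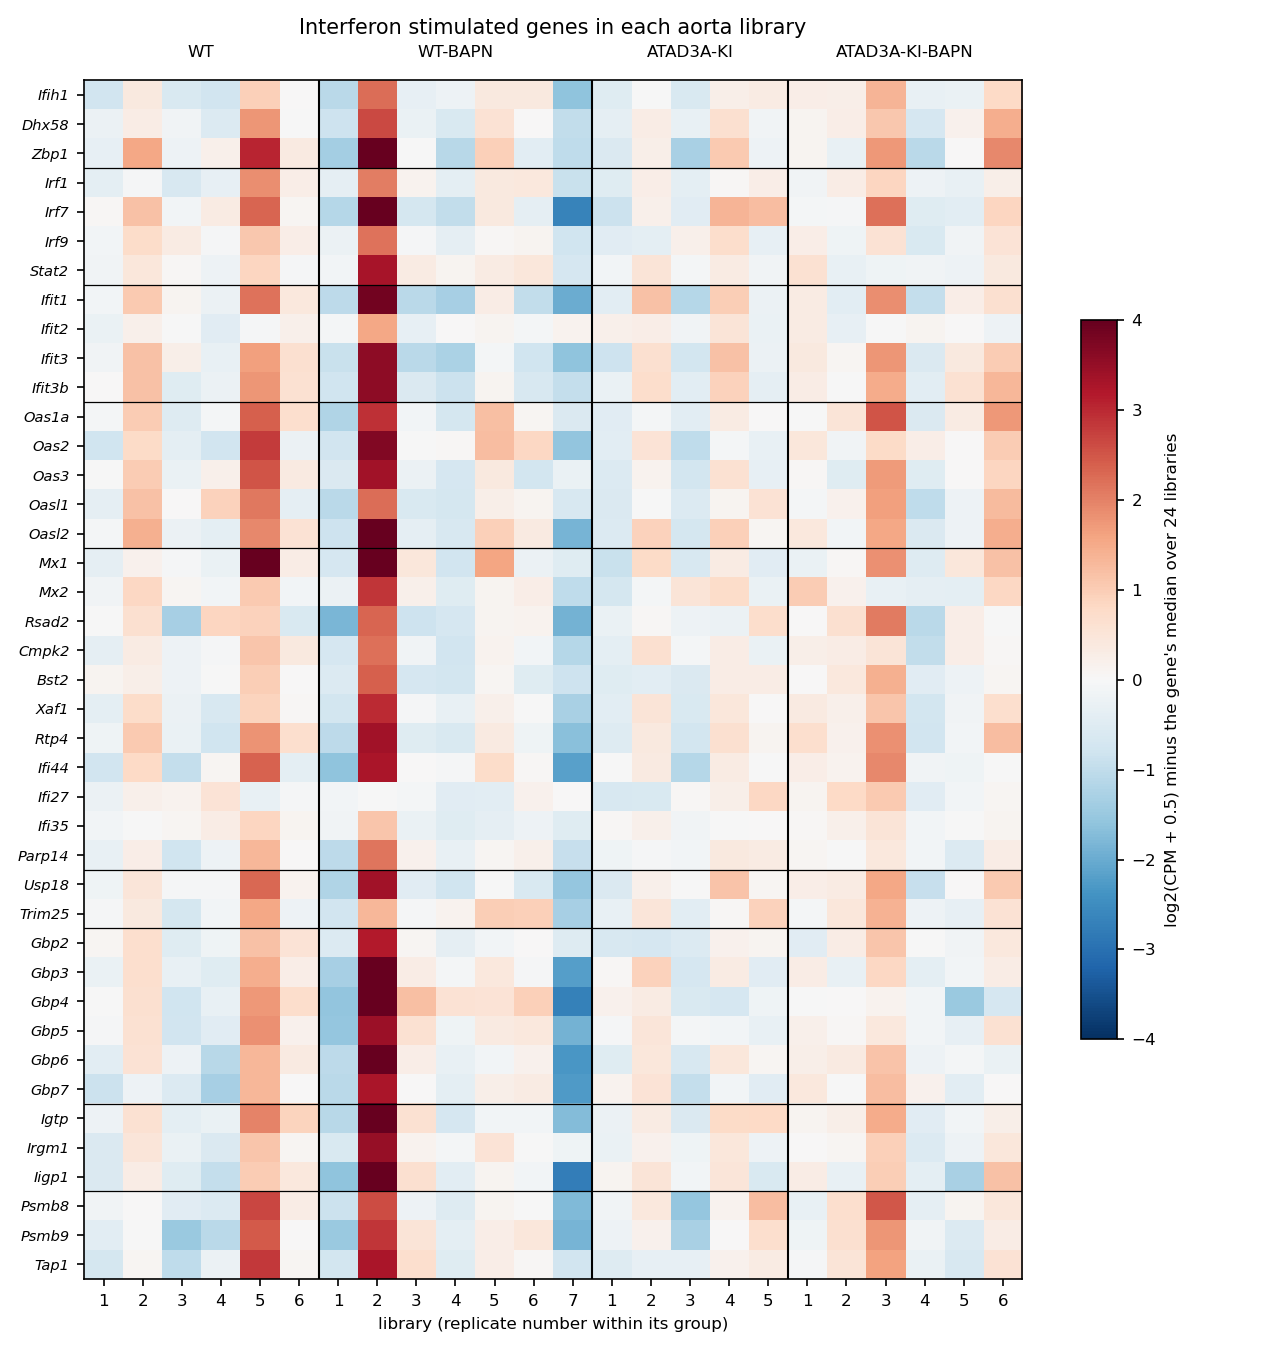
Level of each of the 41 members (rows, grouped by role with horizontal lines) in each of the 24 libraries (columns, by replicate number within group), as log2(CPM + 0.5) minus the gene's median over the 24 libraries. The colour scale ends at 4 in either direction. WT-BAPN replicate 2 is red in nearly every row, WT replicate 5 and ATAD3A-KI-BAPN replicate 3 are paler red, and WT-BAPN replicate 7 is mostly blue.

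One aorta on BAPN, WT-BAPN replicate 2, had high RNA of nearly the whole set. It held the highest level of all 24 libraries for 38 of 41 members, against 3% of the genes tested, and the highest of its group for 40 of 41, Ifi27 being the exception. For 23 members it was over 2 times the highest of the other 23 libraries, which held for 60 of the 14216 genes tested (0.422%). Against the median of the other 6 WT-BAPN libraries the ratio was 11.5 at the median over the members, with a range from 1.05 for Ifi27 to 79.1 for Zbp1. Whether more cells made these transcripts or each cell made more cannot be told apart in bulk tissue.

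By role, the immunity related GTPases and the IFIT proteins stood highest in that library. These GTPases act on the vacuoles of intracellular pathogens, and the median ratio of the 3 genes was 31.6. Iigp1 reached 805 CPM, where the rest of its group lay between 2.88 and 35.6 CPM and no library of the other 3 groups exceeded 52.0 CPM. Igtp was at 310 CPM and Irgm1 at 268 CPM, against at most 19.9 and 34.7 CPM in the rest of the group. The IFIT proteins bind viral RNA and block its translation. Ifit3 was at 206 CPM against 5.24 to 15.9 CPM, and the median ratio of the 4 was 24.4, although Ifit2, at 65.6 CPM, was only 3.06 times its median.

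The OAS enzymes, which make the oligoadenylates that activate RNase L, had a median ratio of 14.4 over 5 genes. Oasl2 was at 199 CPM in that library against 2.72 to 21.7 CPM in the rest of its group. The guanylate binding proteins, which attack membranes of intracellular bacteria and parasites, had a median ratio of 11.5 and none below 10.5. Among them Gbp2 was at 278 CPM against 20.4 to 31.7 CPM, and Gbp4 at 196 CPM against 1.26 to 25.7 CPM. The 3 sensors had a median ratio of 10.9. Zbp1, a sensor of Z-form nucleic acid that can start necroptosis, was at 89.4 CPM where the rest of its group was at 0.517 to 4.60 CPM.

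Ratios were smaller for the transcription factors and the genes of antigen processing. The 4 transcription factors had a median ratio of 6.84. Irf7, which amplifies type I interferon production, was 32.8 times the median of the other libraries at 196 CPM. Stat2, a part of the type I complex, was at 319 CPM against 19.7 to 43.7 CPM. Psmb8 and Psmb9, subunits of the immunoproteasome, and the peptide transporter Tap1 were 7.82 to 11.5 times their medians. Ifi27 was at 261 CPM, inside the range of 193 to 298 CPM of the rest of its group.

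**Figure D2:**
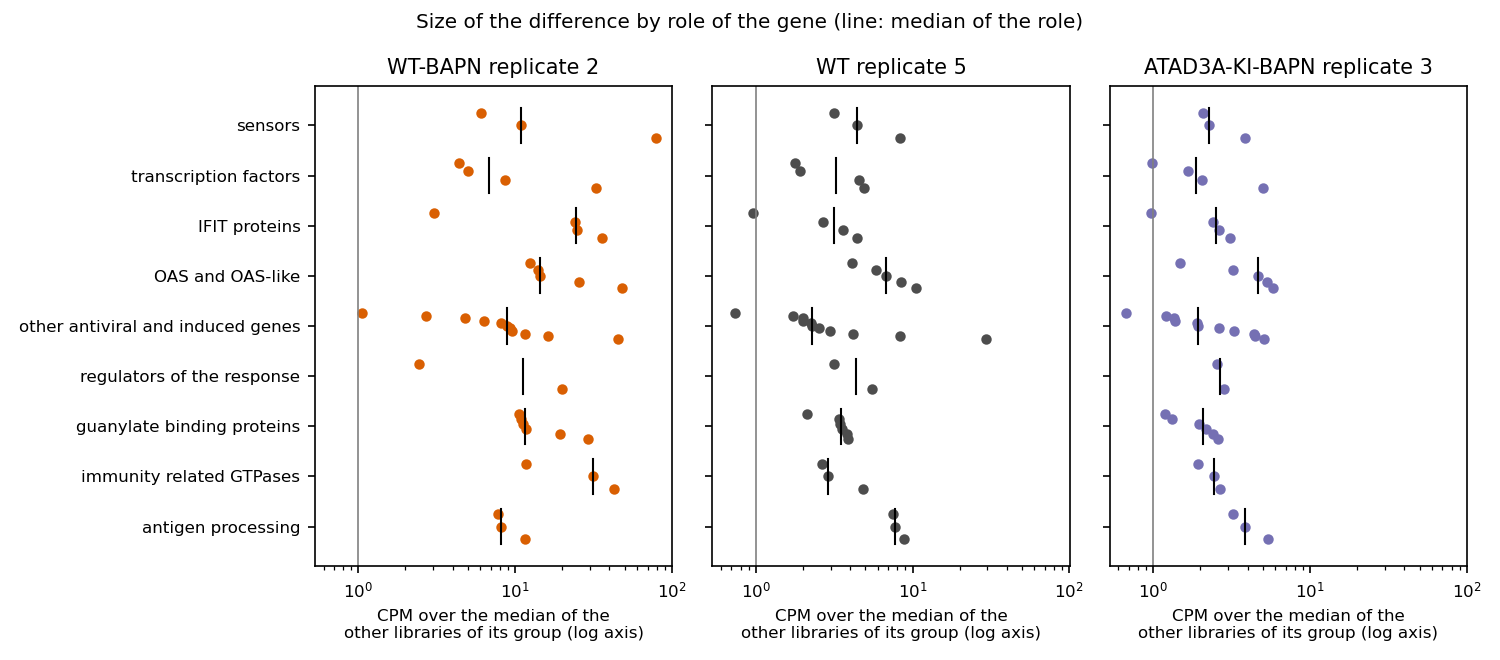
CPM of each member in 3 libraries divided by the median of the other libraries of the same group (log axis), by role; short vertical lines are role medians and the grey line is a ratio of 1. WT-BAPN replicate 2 has ratios up to 79.1 and a median of 11.5, WT replicate 5 a median of 3.63 and ATAD3A-KI-BAPN replicate 3 a median of 2.44.

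Markers of immune cells in WT-BAPN replicate 2 lay inside the range of the other animals of its group. Only replicate 5 was higher in macrophage, T and NK cell, and neutrophil and monocyte markers. In WT-BAPN replicate 2 the 10 T and NK cell markers summed to 7.30 CPM (group range 0.982 to 8.40, median 2.79). Its 6 B cell markers summed to 3.20 CPM (group range 0.878 to 4.60). The 12 macrophage markers summed to 925 CPM (group median 317), against 1168 CPM in WT-BAPN replicate 5. The 6 dendritic cell markers other than Bst2, itself a member, summed to 23.1 CPM, under the group median of 29.3. The 6 neutrophil and monocyte markers summed to 32.8 CPM (group median 8.53), against 44.0 in WT-BAPN replicate 5. Airway and skeletal muscle markers, at 4.10 and 8.57 CPM, were near the group medians of 3.46 and 8.75, with 3 of the 6 airway markers at 0. Mesothelium markers summed to 97.3 CPM (group median 24.6) and smooth muscle markers to 16217 CPM (group median 26984), and their part was not tested. Every macrophage, T and NK, B and dendritic cell marker counted had at least 1 read in this library, and the part of these cells in its levels was not tested.

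WT replicate 5 had the next highest level. It was the highest WT library for 39 of 41 members, although it was also the highest for 35.8% of all genes tested. The median ratio to the other 5 WT libraries was 3.63. By role the median ratio was highest for the 3 genes of antigen processing (7.78, range 7.47 to 8.81) and the OAS genes (6.74, up to 10.6 for Oas2). The single gene with the highest ratio was Mx1, a dynamin-like GTPase that blocks influenza viruses, at 20.1 CPM against 0.450 to 0.995 CPM. In this library the immune, airway and skeletal muscle markers given above moved with the members, and their part in the levels was not tested.

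ATAD3A-KI-BAPN replicate 3 was the highest of its group for 33 of 41 members, against 30.4% of the genes tested, with a median ratio of 2.44. Its OAS genes had a median ratio of 4.64, and Psmb8 was at 59.8 CPM against 7.74 to 16.7 CPM. Macrophage markers summed to 2522 CPM in it, the highest of the group (median 371), and its T and NK cell markers to 27.8 CPM (median 2.45). Its adipocyte markers were the highest of the 24 libraries (7454 CPM, group median 1480) and its smooth muscle markers the lowest (10433 CPM, group median 26958). Mesothelium markers (141 CPM) and neutrophil and monocyte markers (66.0 CPM) were the highest of its group. The part of these in the levels was not tested.

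At the other end, WT-BAPN replicate 7 was the lowest of its group for 30 members, and for 27.4% of the genes tested. It was the lowest of all 24 libraries for 29 members, a count for which no share of all genes was computed. The median ratio to the rest of its group was 0.428. The guanylate binding proteins were lowest, with a median ratio of 0.162, while Ifi27 (1.09), Ifit2 (1.12) and Oas3 (1.39) were at or above their medians. Its endothelial markers were also the lowest of the 24 libraries, at 196 CPM, and its smooth muscle markers the highest of its group, at 42535 CPM; their part was not tested.

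**Figure D3:**
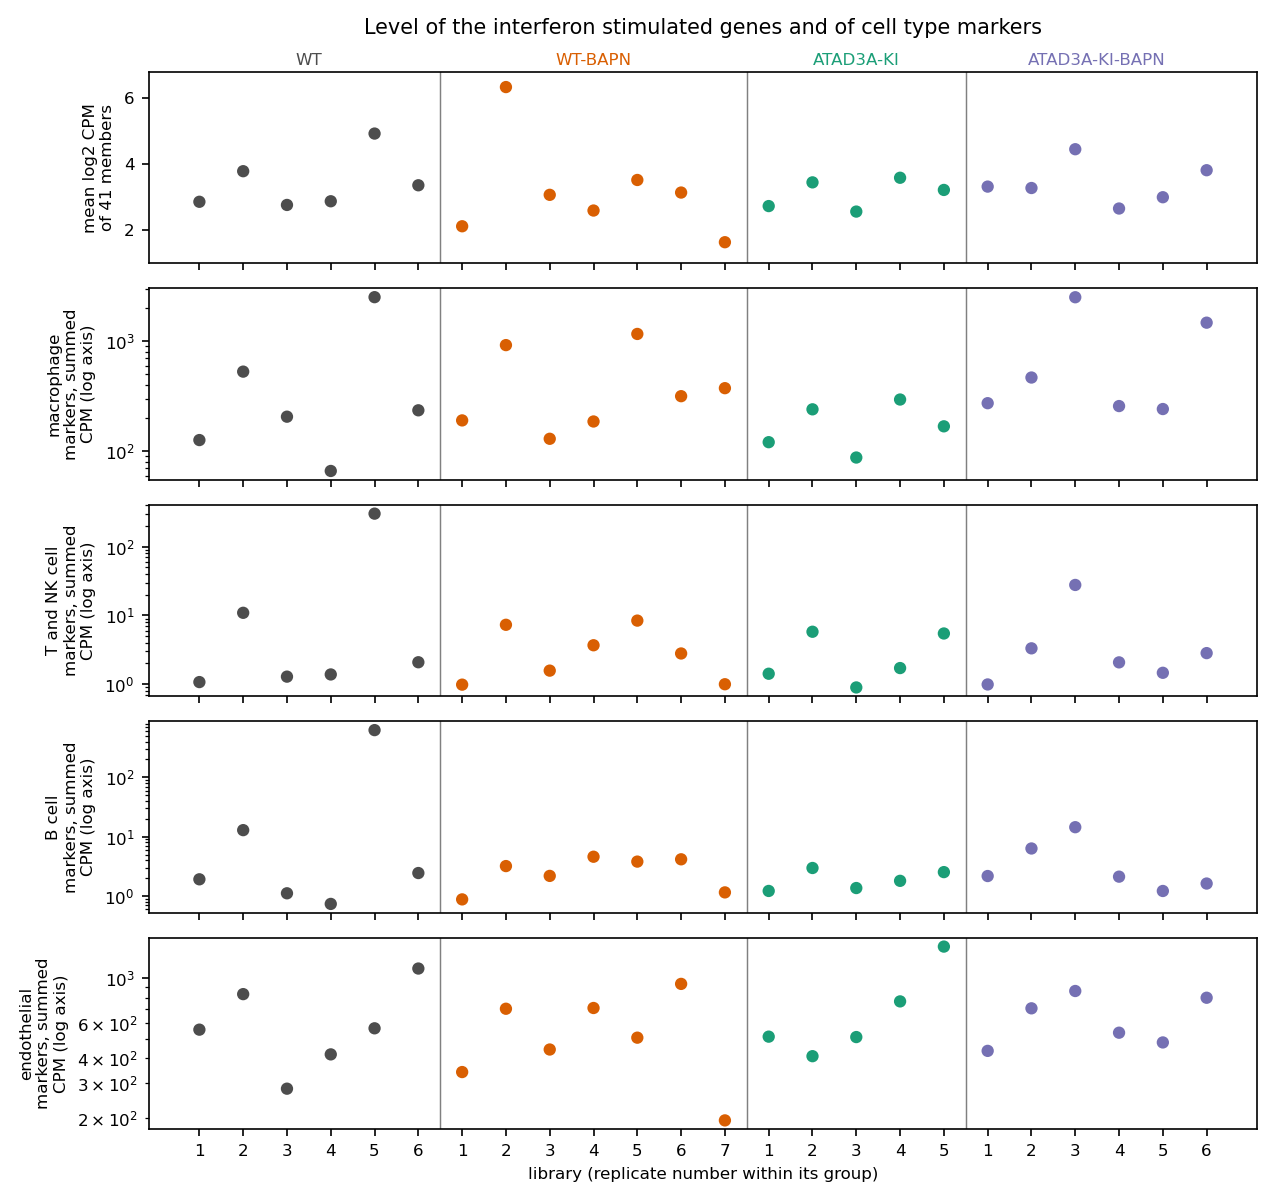
Mean log2 CPM of the 41 members (top) and summed CPM of macrophage, T and NK cell, B cell and endothelial markers (log axes) in each of the 24 libraries. WT-BAPN replicate 2 reaches 6.34 in the top panel while its T, B and macrophage markers lie within the range of the other animals of its group. WT replicate 5 and ATAD3A-KI-BAPN replicate 3 are high in the top panel and in their T, B and macrophage markers.

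Transcripts of the interferons themselves were at the limit of detection. The 21 interferon genes of the count data included 7 with no read in any library, none had more than 6 reads in a library, and none passed the filter. WT-BAPN replicate 2 held 10 such reads, the most of any library, 2 of them of Ifnb1. It held 0 reads of Ifng, which allows up to 0.123 CPM (3 counts, counting error only). WT replicate 5 held 6 reads, all of Ifng, the cytokine made mainly by T and NK cells.

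Isg15, a ubiquitin-like modifier of the same response that is not a member, was at 106 CPM in WT-BAPN replicate 2, at 24.0 CPM in WT replicate 5 and at 25.5 CPM in ATAD3A-KI-BAPN replicate 3. Of 20 other nucleic acid sensing genes tested, 4 had their highest level of all 24 libraries in WT-BAPN replicate 2, against 3% of all genes tested. None of the 4 was at over 2 times the next library. Ddx58, a sensor of viral RNA, was at 77.1 CPM there, and the kinase Eif2ak2, which senses double-stranded RNA, at 51.8 against at most 34.7 CPM. Ifi204 was at 34.5 CPM against at most 23.6 CPM, and the endosomal receptor Tlr3 at 22.2 against at most 17.1 CPM. The other 16 were not at their highest there, among them the DNA sensor Cgas (1.72 CPM, with 0.723 to 2.47 over its group) and its adaptor Sting1 (13.2 CPM, 3.67 to 18.1). In WT replicate 5, which carried RNA of other tissue, 8 of the 20 had their highest level, Cgas and Sting1 included. It was the highest of all libraries for 14.1% of all genes tested.

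The sensors and transcription factors did not separate the groups. Zbp1 had a lowest, median and highest CPM of 1.58, 2.69 and 21.2 in WT, 0.517, 1.47 and 89.4 in WT-BAPN, and 0.740, 2.23 and 9.50 in ATAD3A-KI-BAPN. In the 5 ATAD3A-KI libraries it was at 1.26, 2.58, 0.564, 4.95 and 1.79 CPM. Ifih1, which senses long double-stranded RNA, was at 4.10, 6.00 and 14.5 CPM in WT and 2.04, 6.22 and 36.1 in WT-BAPN. It was at 5.07, 7.19, 4.61, 8.65 and 9.16 CPM in ATAD3A-KI and 5.82, 8.72 and 19.6 in ATAD3A-KI-BAPN, so all groups overlapped. Stat2 was at 27.8, 31.8 and 58.5 CPM in WT, 19.7, 39.9 and 319 in WT-BAPN and 25.9, 28.4 and 49.2 in ATAD3A-KI-BAPN. In ATAD3A-KI it was at 29.2, 45.9, 29.8, 40.2 and 29.0 CPM, and apart from the single value of 319 CPM the 4 groups shared a range. Irf9, the DNA-binding part of the type I complex, had the highest level per kilobase of its role, with group medians of 42.4, 33.3, 27.4 and 36.2 CPM in the order WT, WT-BAPN, ATAD3A-KI and ATAD3A-KI-BAPN.

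Ifit3 was the highest IFIT gene per kilobase. It was at 13.5, 23.5 and 53.6 CPM in WT, and 6 of the 7 WT-BAPN libraries were at 5.24 to 15.9 CPM with the remaining one at 206 CPM. It was at 9.35, 26.7, 9.93, 38.8 and 14.4 CPM in ATAD3A-KI and 11.1, 22.4 and 58.9 CPM in ATAD3A-KI-BAPN. Ifit2 varied least of the 4, at 15.9 to 25.5 CPM in WT, 18.2 to 31.4 CPM in ATAD3A-KI and 17.3 to 27.3 CPM in ATAD3A-KI-BAPN.

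The OAS genes and Mx1 were low in most libraries. Oas1a was at 1.20, 2.62 and 12.4 CPM in WT, 0.568, 1.78 and 18.1 in WT-BAPN and 1.13, 2.77 and 13.5 in ATAD3A-KI-BAPN. In ATAD3A-KI it stayed at 1.30, 1.84, 1.32, 2.59 and 1.96 CPM, a range without any high library. Oas3 was under 1 CPM at the median of each group, with 8.78 CPM in WT-BAPN replicate 2 and 4.69 CPM in WT replicate 5. Oasl1 had a highest value of 1.75 CPM in ATAD3A-KI and of 6.01, 6.60 and 4.22 CPM in WT, WT-BAPN and ATAD3A-KI-BAPN. Oasl2, the highest of its role per kilobase, had group medians of 13.7, 8.60, 11.7 and 12.6 CPM in the same order of groups as for Irf9. Mx1 was at 0.157 to 1.56 CPM in ATAD3A-KI, where WT ran from 0.450 to 20.1 CPM on the strength of replicate 5.

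Ifi27, an interferon-induced membrane protein, had the highest level per kilobase of all members (194 CPM per kilobase) and was not raised in WT-BAPN replicate 2 or WT replicate 5, although its 546 CPM in ATAD3A-KI-BAPN replicate 3 was the highest of all 24 libraries. It was at 218, 276 and 391 CPM in WT, 193, 253 and 298 in WT-BAPN and 195, 283 and 546 in ATAD3A-KI-BAPN. In ATAD3A-KI it was at 171, 174, 273, 315 and 467 CPM. Trim25, a ubiquitin ligase that activates RNA sensing, was at 10.1, 15.9 and 49.5 CPM in WT and 6.34, 18.5 and 42.4 CPM in WT-BAPN. It was at 13.6, 23.4, 12.3, 17.3 and 32.3 CPM in ATAD3A-KI and 13.3, 19.5 and 44.7 CPM in ATAD3A-KI-BAPN, again overlapping.

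Among the GTPases, Gbp2 was at 21.4, 38.1 and 67.9 CPM in WT and 21.7, 33.7 and 65.4 in ATAD3A-KI-BAPN, and at 19.2, 18.6, 20.7, 34.2 and 32.9 CPM in ATAD3A-KI. Gbp4 was at 6.16, 14.1 and 37.9 CPM in WT and at 12.6, 13.8, 7.10, 6.66 and 9.73 CPM in ATAD3A-KI. In ATAD3A-KI-BAPN no library exceeded 12.0 CPM, while 5 of the 7 WT-BAPN libraries were at 16.5 to 196 CPM and the remaining 2 at 1.26 and 3.31 CPM. Iigp1 was at 11.4, 21.9 and 45.9 CPM in WT, 24.6, 32.5, 20.7, 31.7 and 14.7 in ATAD3A-KI and 8.82, 23.0 and 52.0 in ATAD3A-KI-BAPN. Its WT-BAPN median, 20.8 CPM, was close to these, and the group differed through replicate 2. Psmb8 had medians of 9.71, 8.88, 11.4 and 12.7 CPM in the 4 groups, with a single high library in WT (68.1 CPM), WT-BAPN (64.5) and ATAD3A-KI-BAPN (59.8) and at most 24.8 CPM in ATAD3A-KI.

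Igtp and Irgm1, the other immunity related GTPases, gave the same picture. Igtp was at 9.84, 15.5 and 53.0 CPM in WT, 3.56, 11.8 and 310 in WT-BAPN and 9.37, 14.5 and 37.3 in ATAD3A-KI-BAPN, and at 10.8, 16.4, 8.42, 22.2 and 22.6 CPM in ATAD3A-KI. Irgm1 had medians of 22.2 CPM in WT, 23.3 in WT-BAPN and 24.2 in ATAD3A-KI-BAPN, and was at 19.5, 26.6, 20.7, 32.3 and 20.2 CPM in ATAD3A-KI. The group medians of the 22 members not described singly ran from 1.84 CPM (Dhx58, a regulator of RNA sensing, in WT-BAPN) to 57.1 CPM (Bst2, the tetherin that holds budding virus at the cell surface, in WT).

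**Figure D4:**
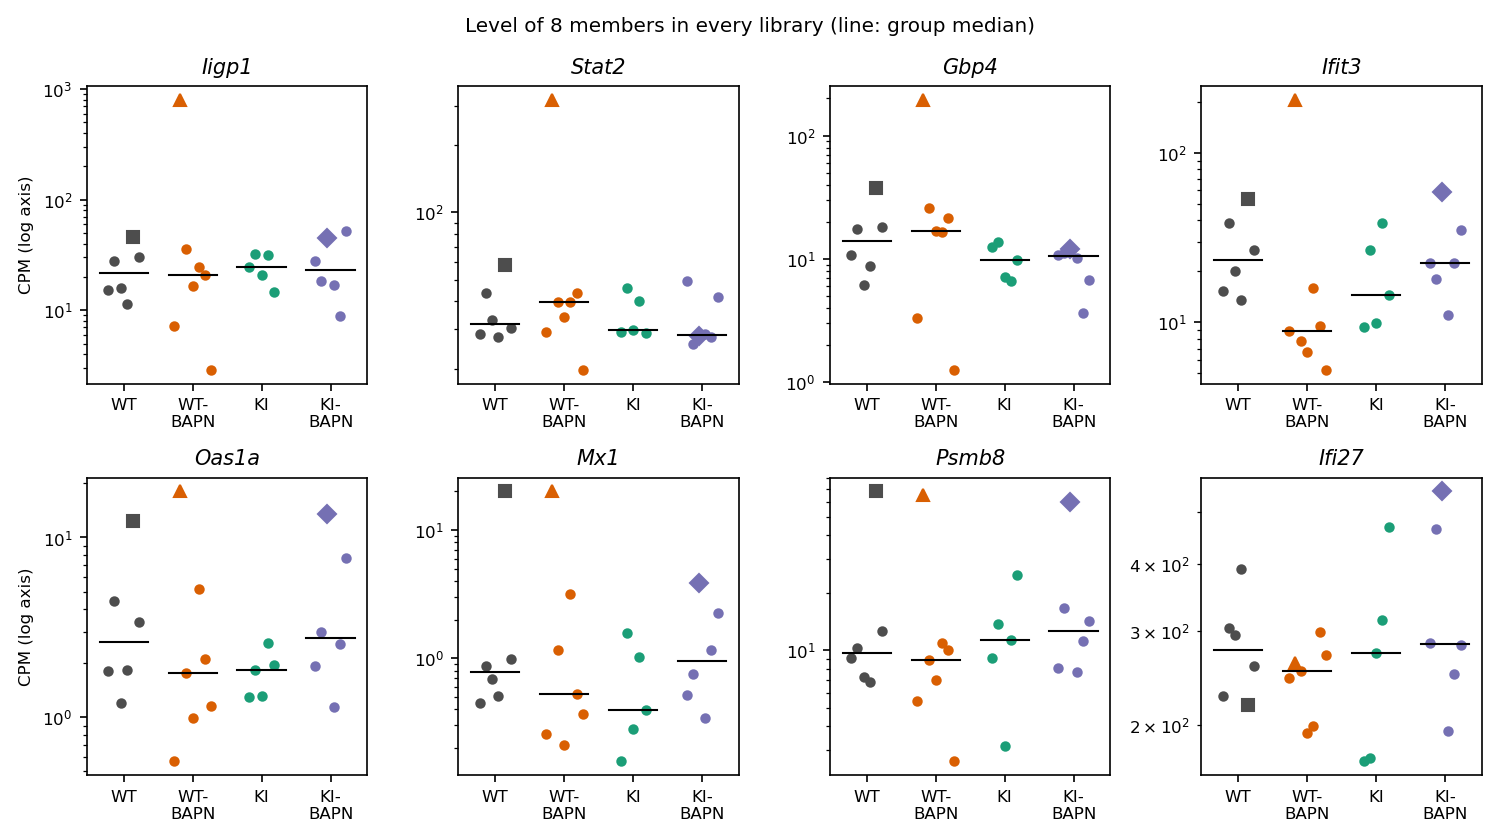
CPM of 8 members in each of the 24 libraries (log axes); each point is 1 library and the line is the group median. Triangles mark WT-BAPN replicate 2, squares WT replicate 5 and diamonds ATAD3A-KI-BAPN replicate 3; for Iigp1 the triangle is at 805 CPM and no other point exceeds 52.0 CPM, while for Ifi27 it lies among the other points.

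On BAPN in WT no member was called: none of the 41 had an edgeR adjusted p under 0.05, where 6.14% of all genes tested were called (873 of 14216). DESeq2 and limma voom called 0 members as well, and 2 members had an unadjusted edgeR p under 0.05, against 25% of all genes. The fitted log2 differences were above 0 for 36 members, with a median of 0.42 (all genes -0.04), and stood highest for the immunity related GTPases (median 1.31) and the guanylate binding proteins (1.18). Iigp1 differed by 2.41 ± 0.94 (SE; edgeR adjusted p = 0.116, 0.0551 to 0.870 over the alternatives), Stat2 by 1.02 ± 0.48 (adjusted p = 0.191) and Irgm1 by 1.14 ± 0.55 (adjusted p = 0.201). The libraries of the 2 groups overlapped for each of the 41 members, as they did in the 3 other comparisons of 2 groups. Of all genes tested 2.12% had no overlap for BAPN in WT, 0.647% for BAPN in ATAD3A-KI, 2.38% between genotypes on regular water and 0.218% between genotypes on BAPN.

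These signs turned with WT-BAPN replicate 2. That library was singled out by its high level of these same members, so signs and p-values without it follow in part from the choice. The same holds for the comparisons below that leave it out. Without WT-BAPN replicate 2, 40 of 41 members were below 0 on BAPN in WT, with a median of -0.76. Iigp1 was then at -0.45, Irgm1 at -0.16 and Stat2 at -0.11. In that fit 17 members had an unadjusted edgeR p under 0.05 (22.8% of genes), and 2 of 41 were called lower, where 1.28% of genes were called lower and 3.55% in either direction: Ifit3 at -1.63 ± 0.43 (edgeR adjusted p = 0.0387) and Ifi35, which binds other interferon-induced proteins, at -0.57 ± 0.14 (adjusted p = 0.0326). Ifit3 was a named member through its level per kilobase, not through a small p. Ifi35 was not singled out by the rule for named genes, and was named after its values were seen. When WT replicate 5, the high library on regular water, was left out as well, the median was -0.29 and Ifi35 alone was called (-0.39 ± 0.11, adjusted p = 0.0496, with 5.67% of genes called and 1.69% lower). Leaving out WT replicate 5 alone gave a median of 0.95. With ATAD3A-KI-BAPN replicate 3 also left out, Ifit3 (-1.34 ± 0.38, adjusted p = 0.0415) and Ifi35 (-0.40 ± 0.10, adjusted p = 0.0232) were called lower, with 6.92% of genes called and 2.29% lower.

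On BAPN in ATAD3A-KI no member was called by edgeR (0.0352% of genes, 5 of 14216), DESeq2 or limma voom, and 0 members had an unadjusted p under 0.05 (10.1% of genes). The log2 differences were above 0 for 37 members with a median of 0.33 (all genes -0.03). The OAS genes were highest, with a median of 0.84: Oas1a differed by 1.46 ± 0.81 (edgeR adjusted p = 0.551) and Oasl1 by 0.84 ± 0.81 (adjusted p = 0.739). The sensor Ifih1 differed by 0.57 ± 0.54 (adjusted p = 0.736). The 95% interval for Oas1a ran from -0.22 to 3.14. Macrophage markers summed to 87.6 to 295 CPM in ATAD3A-KI and 242 to 2522 CPM in ATAD3A-KI-BAPN, and their part was not tested. Without ATAD3A-KI-BAPN replicate 3 the median of the members was 0.07 and Oas1a differed by 0.86.

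ATAD3A-KI against WT on regular water also gave no call by edgeR (0.19% of genes, 27 of 14216), DESeq2 or limma voom, and 0 members with an unadjusted p under 0.05 (16.9% of genes). Of the 41 log2 differences 39 were below 0, with a median of -0.42 (all genes -0.01). Mx1 differed by -2.52 ± 1.26 (edgeR adjusted p = 0.313), Oas3 by -1.88 ± 1.19 (adjusted p = 0.432) and Oas1a by -1.21 ± 0.81 (adjusted p = 0.460). Without WT replicate 5 the median was 0.05, Mx1 differed by -0.04, Oas3 by -0.88 and Oas1a by -0.50.

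ATAD3A-KI-BAPN against WT-BAPN gave no call by edgeR (0.00703% of genes, 1 of 14216), DESeq2 or limma voom, and 4 members had an unadjusted p under 0.05 (13.9% of genes). The median was -0.53 (all genes -0.02), with 34 of 41 below 0. Gbp4 differed by -2.15 ± 0.75 (edgeR adjusted p = 0.263), Iigp1 by -2.22 ± 0.93 (adjusted p = 0.296) and Stat2 by -1.16 ± 0.49 (adjusted p = 0.292). Without WT-BAPN replicate 2 the median was 0.67, with 39 of 41 above 0, 0 called (0.00707% of genes) and 12 with an unadjusted edgeR p under 0.05 (12.6% of genes). In that fit Ifit3 differed by 1.63 ± 0.43 (edgeR adjusted p = 0.313). In the same fit Iigp1 differed by 0.65, Stat2 by -0.04 and Gbp4 by -0.64.

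The genotype by BAPN interaction, the BAPN difference in ATAD3A-KI minus that in WT, had no member called (0% of genes; 0 by DESeq2 and limma voom; 0 members and 14.8% of genes with an unadjusted p under 0.05). The median was 0.06 with 21 members above 0. Iigp1 was at -2.24 ± 1.31 (edgeR adjusted p = 0.406), Stat2 at -1.07 ± 0.70 (adjusted p = 0.448) and Ifit2 at -0.53 ± 0.36 (adjusted p = 0.459). Without WT-BAPN replicate 2 the median was 1.20, with 0 members called by edgeR and 16 with an unadjusted p under 0.05 (13.9% of genes), and without WT replicate 5 it was -0.62. The 5 comparisons share groups, so their values are not independent of each other.

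**Figure D5:**
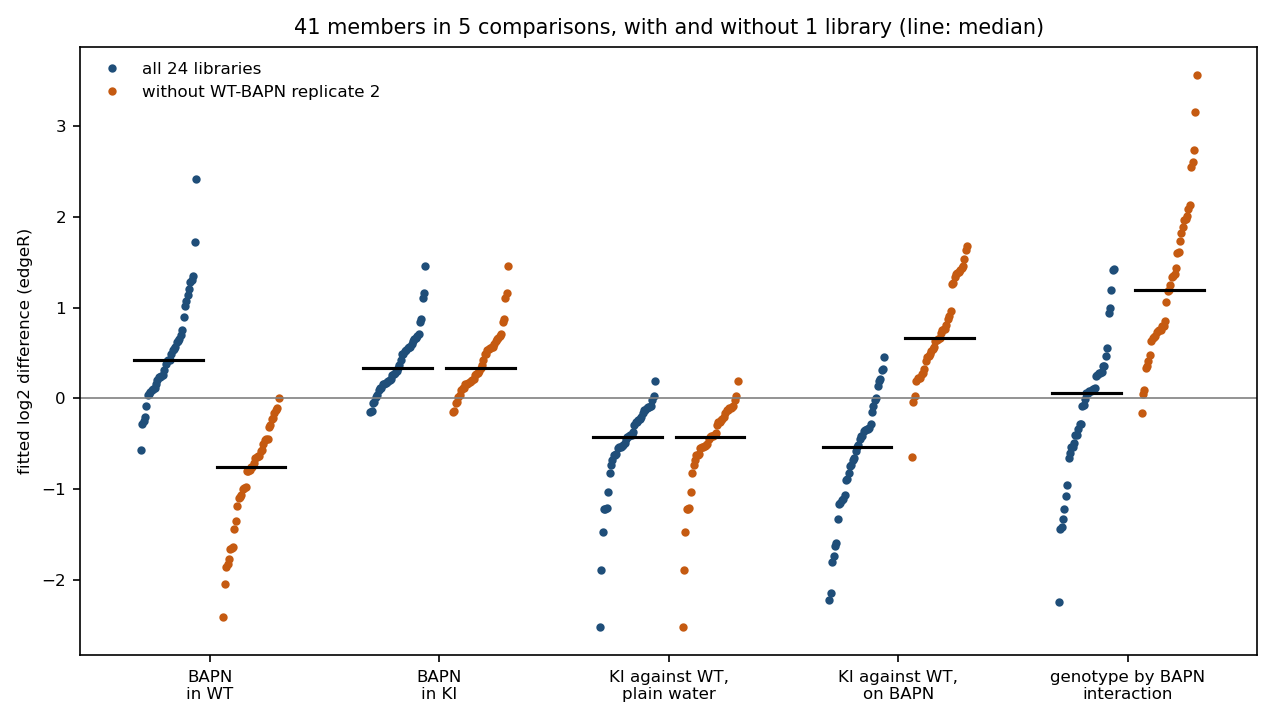
Fitted log2 difference of each of the 41 members in the 5 comparisons, with all 24 libraries (blue) and without WT-BAPN replicate 2 (orange); points are members in order of value and lines are medians. On BAPN in WT the median goes from 0.42 to -0.76, and between genotypes on BAPN from -0.53 to 0.67, when that library is left out.

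The precision of these tests was low for the members. The median SE of their log2 differences was 0.69 on BAPN in WT, where that of all genes tested was 0.22, and 0.76 against 0.24 for ATAD3A-KI against WT on regular water. The interval for Iigp1 on BAPN in WT ran from 0.47 to 4.36 and that for Mx1 between genotypes on regular water from -5.12 to 0.08.

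Of the other genes of the pathway 5 were called on BAPN in WT, where 3.44% of all genes tested were called higher and 2.7% lower, and edgeR called 0 in the other 4 comparisons. Of 17 receptor and JAK-STAT genes 1 rose and 0 fell: the kinase Tyk2, from 24.96 to 37.4 CPM in WT to 25.2 to 54.0 CPM in WT-BAPN (0.59 ± 0.18, edgeR adjusted p = 0.0483). Of 20 nucleic acid sensing genes tested 1 rose and 0 fell: Ikbke, a kinase that activates IRF3, from 12.98 to 21.4 CPM in WT to 16.6 to 36.8 CPM in WT-BAPN (0.85 ± 0.25, adjusted p = 0.0463). Both calls were lost in 10 of the 13 fits that left out 1 library each, with adjusted p up to 0.0976 for Tyk2 and 0.0949 for Ikbke. In these 2 genes WT-BAPN replicate 2 was not apart from its group, at 49.6 and 36.7 CPM.

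Of 14 nucleic acid clearance genes tested 0 rose and 2 fell on BAPN in WT. Endog, a mitochondrial nuclease, was at 5.99 to 9.18 CPM in WT and 2.47 to 5.76 CPM in WT-BAPN, without overlap (-1.05 ± 0.26, edgeR adjusted p = 0.0251). Its adjusted p reached 0.0575 when 1 library was left out, and passed the threshold in 9 of 13 such fits. The secreted nuclease Dnase1l3 was called at -5.01 ± 1.36 (adjusted p = 0.0342), but its 43.4 CPM in WT replicate 5 stood against at most 0.738 CPM elsewhere in WT and WT-BAPN, and without that library it was at -0.49 (adjusted p = 0.755). Of 37 further interferon-induced genes 0 rose and 1 fell: Ifitm1 (-3.17 ± 0.95, adjusted p = 0.0480), at 117 CPM in WT replicate 5, and without that library it was higher on BAPN (1.09, adjusted p = 0.0373). In WT-BAPN replicate 2, 24 of these 37 genes had their highest level of all libraries, against 3% of all genes tested.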

How the data were processed

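HISAT2, Trim Galore, DESeq2 and FastQC are named in the submitters' processing notes, with the builds mm10 and GRCm38. The counter, strand setting and versions are not stated in the sources used here. The authors deposited raw read counts per gene. Of their gene coordinates 0 of 41 members' matched GENCODE M21, so its GRCm38 positions are given. From the deposited counts, edgeR 4.0.16 (R 4.3.3) fitted 1 mean per group over 24 libraries, with TMM factors, filterByExpr and robust quasi-likelihood F tests; a gene was called where its p, adjusted by Benjamini-Hochberg over 14216 genes, was under 0.05. CPM use TMM factors, and mean log2 CPM a prior count of 2. Alternatives were RLE factors, DESeq2 1.42.0, limma 3.58.1 voom with quality weights, no filter, only the groups compared, a replicate block, a threshold of 0.10, and libraries left out. The fit was also run on simulated data, whose outcome is not given here and is not used as support. No 2 libraries of a group held like counts (lowest chi-square per degree of freedom 30.8 over 61 pairs). Members and lists were chosen with earlier results of these data known. Named members are the 3 with the smallest p in each comparison and the highest CPM per kilobase in each role. P-values measure the spread between these animals, 1 library each.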

Additional observations from a re-analysis of the deposited data

Results flagged for a closer look

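Within groups of 5 to 7 libraries, 1 library stood far from the others by Dixon's 95% criterion, applied to CPM, for most named members. For normally distributed values chance alone marks about 1 in 20 groups. CPM need not be so distributed, so the share of all genes tested is given with each count. The members are not independent of each other. WT-BAPN replicate 2 stood apart in the mean log2 CPM of the members (6.34, others 1.64 to 3.52) and, over all members, for 39 of 41, against 1.85% of all genes tested. WT replicate 5 did so for 21 (17.8% of genes), ATAD3A-KI-BAPN replicate 3 for 11 (5.86% of genes), and ATAD3A-KI replicates 2 and 5 for 1 each (4.45% and 5.46% of genes).

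In WT-BAPN replicate 2 the named members that stood apart as high were the GTPases Iigp1 (805 CPM), Irgm1 (268), Igtp (310), Gbp2 (278) and Gbp4 (196), the transcription factors Stat2 (319) and Irf9 (158), the sensors Zbp1 (89.4) and Ifih1 (36.1), the IFIT genes Ifit3 (206) and Ifit2 (65.6), and the OAS genes Oasl2 (199), Oas1a (18.1), Oas3 (8.78) and Oasl1 (6.60 CPM). Mx1 (20.1 CPM) and Psmb8 (64.5 CPM) stood apart there too. Ifi27 and Trim25 did not.

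In WT replicate 5 the named members that stood apart as high were Mx1 (20.1 CPM), Oas1a (12.4), Oas3 (4.69), Zbp1 (21.2), Trim25 (49.5), Igtp (53.0) and Psmb8 (68.1 CPM). In ATAD3A-KI-BAPN replicate 3 they were Igtp (37.3 CPM) and Psmb8 (59.8 CPM).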

How the results depend on the processing

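No member was called in any comparison with RLE factors, DESeq2 (adjusted p not given for 1 member), limma voom, no filter, only the groups compared, the threshold of 0.10 or without WT replicate 5 and ATAD3A-KI replicates 1, 2 and 5. That set of 4 came from an earlier look at these data for RNA of other tissue, and the markers summed here do not set ATAD3A-KI replicate 1 apart. Leaving out 1 library each gave 0 to 2 members called on BAPN in WT and 0 in the other 4 comparisons, and medians from -0.76 to 0.95 on BAPN in WT, -0.78 to 0.67 between genotypes on BAPN and -0.62 to 1.20 for the interaction. On BAPN in WT such fits ran from -0.45 to 2.69 for Iigp1, -0.16 to 1.44 for Irgm1 and -0.11 to 1.20 for Stat2. Iigp1 ran from -2.49 to 0.65 between genotypes on BAPN, and for the interaction Iigp1 ran from -2.52 to 0.63 and Stat2 from -1.25 to 0.054. For the 3 members with the smallest p in each comparison, each sign reversal in that comparison came without WT-BAPN replicate 2. Sign reversals of the other named members in such fits were not followed.

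DESeq2 replaced counts of that library for 22 genes, 8 of them members, and reversed Iigp1 (-0.40), Irgm1 (-0.17) and Stat2 (-0.12) on BAPN in WT, Iigp1 between genotypes on BAPN (0.60), and Iigp1 (0.58) and Stat2 (0.066) for the interaction. Chosen after seeing the data, leaving out WT-BAPN replicate 2 and WT replicate 5 together gave 1 member called on BAPN in WT, a median of 0.68 between genotypes on BAPN, and Iigp1 at -0.16, 0.67 and 0.35 on BAPN in WT, between genotypes on BAPN and for the interaction. Leaving out ATAD3A-KI-BAPN replicate 3 too gave 2 members called on BAPN in WT, Iigp1 at -0.17, 0.47 and 0.17, and Stat2 at 0.010 between genotypes on BAPN.

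A replicate block called 0 members in each comparison, with medians of 0.23 on BAPN in WT, 0.44 on BAPN in ATAD3A-KI, -0.33 and -0.04 between genotypes on water and on BAPN, and 0.28 for the interaction. Of the correlations of same-numbered samples, 5 of 6 exceeded 0.1 on BAPN in WT (-0.11 to 0.57) and 1 of 5 on BAPN in ATAD3A-KI. Between genotypes, 3 of 5 did so on regular water and 2 of 6 on BAPN. They were not set beside those of differently numbered samples, so whether the numbers pair the samples cannot be told.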

Other observations

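Beyond the members, the 60 genes that WT-BAPN replicate 2 held at over 2 times any other library included 15 genes of the other lists of interferon biology, 13 of them further interferon-induced genes, and 22 genes of none of these lists. The lists are not complete, and the 22 include genes of the same families as members, such as Gbp8, Gbp10 and Gbp11. Ranked among 10806 genes of at least 5 CPM in that library, the 20 with the highest ratio to the highest other library held 11 members. The others in that set included the guanylate binding protein gene Gbp10 (11.7 CPM against at most 0.819), the transcription factor gene Batf2 (10.4 against 1.22), the apolipoprotein L family genes Apol9a (70.4 against 8.46) and Apol9b (70.0 against 12.7), and the GTPase genes Irgm2 (260 against 47.9) and Tgtp2 (79.5 against 18.6). Among the 22 were also Cd274, which encodes the checkpoint ligand PD-L1, and Ido1, which degrades tryptophan. These genes were named after their values were seen.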
